A study of Arabidopsis thaliana with 8 samples.

Results

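The nuclear photosystem and antenna genes of Arabidopsis thaliana were examined in stems. They are 41 listed loci of the LHCA, LHCB and nuclear PSA and PSB genes, chosen by name, though with earlier results of these data known. All 41 were measured, among 19609 genes in all. They comprise 6 genes of the photosystem I antenna (LHCA), 14 of the photosystem II antenna (LHCB), 12 of photosystem I subunits (PSA) and 9 of photosystem II subunits (PSB). The CEF2-VP16 nst1 nst3 plants (4 arrays) carried NST3pro:CEF2-VP16:HSP in the nst1-1 nst3-1 double mutant, and the nst1 nst3 plants (4 arrays) carried the same nst1-1 and nst3-1 alleles without it. All plants were of the Col0 background, grew in soil under 16 h of light and 8 h of dark each day at 23 °C, and gave stems 10 cm long. NST1 and NST3 are factors that switch on secondary walls in fibres, and VP16 is a viral domain that activates transcription. The series' design text calls the factor ERF035. The NST3 promoter, which is known from fibre cells, drove the factor, and whole stems were sampled, so the RNA came from cells with and without the factor. A hybridised array gave 1 brightness, the processed signal, per probe.

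Photosystems I and II are the pigment-protein complexes of the chloroplast membrane that turn light into electron flow. Each is fed by an antenna of chlorophyll-binding LHC proteins. Their reaction centres are encoded in the chloroplast, while the antenna and most outer subunits are encoded in the nucleus and imported. In stems they are known from the green cortex and the guard cells. Their mRNAs are among the most abundant of green tissue.

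Relative to each array's 75th percentile, 37 of the 41 genes were higher in CEF2-VP16 nst1 nst3 stems than in nst1 nst3 stems and 0 were lower (limma, Benjamini-Hochberg adjusted p under 0.05 over all genes). Over all 19609 genes, 29.5% were higher and 24.8% lower by the same rule. The median log2 difference of the 41 genes was 0.63, beside 0.03 for all genes. The size of these rises depended on the scale. With Agilent's E1A spike-in RNA as the scale, which moved the median of all genes to -0.39, 6 of the 41 were higher and 0 lower, against 10.9% higher and 40.0% lower of all genes. The median of the 41 was then 0.19. Relative to the median of all genes, it lay 0.60 above on the first scale and 0.59 above on the spike-in scale, but only 0.27 above after quantile normalization, where 25 were higher and 1 lower, against 29.1% higher and 24.6% lower of all genes. The 6 were LHCB2.3, LHCB4.2, PSAD1, PSAD2, PSAH2 and PSBQ1.

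**Figure D1:**
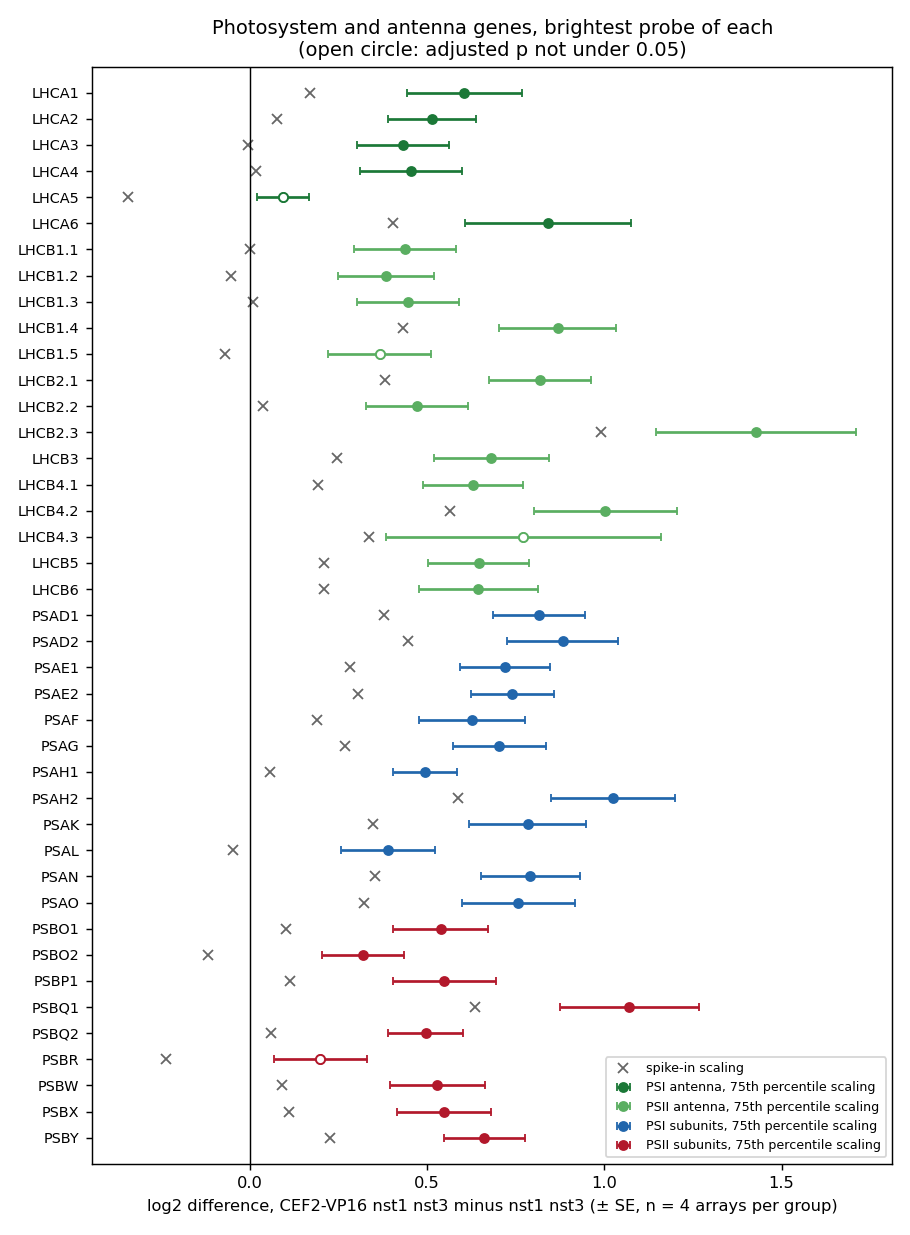
Each circle is the log2 difference of a gene's brightest probe (by mean log2 level), CEF2-VP16 nst1 nst3 minus nst1 nst3, with its SE (4 arrays per group), and each cross is the same difference on the spike-in scale. On the 75th percentile scale all 41 circles lie above 0, from 0.09 to 1.43, while the crosses run from -0.34 to 0.99.

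The arrays themselves set the frame for these values. The processed signal had its 75th percentile at 2344 to 3255 units on CEF2-VP16 nst1 nst3 arrays and at 2774 to 3642 units on nst1 nst3 arrays, and 30291 to 32384 probes were well above background against 31457 to 32340. The mean E1A signal over the 75th percentile, on the log2 scale, was 1.77, 2.26, 2.21 and 2.32 on CEF2-VP16 nst1 nst3 arrays and 1.70, 1.84, 1.75 and 1.54 on nst1 nst3 arrays, so CEF2-VP16 nst1 nst3 array 1 lay within the range of the nst1 nst3 arrays. The 4 arrays of each group lay on a slide of their own, so slide and genotype cannot be told apart. No label says that replicates came from separate plants, and the p-values then rest on a spread between samples that may be only technical. ERF035, the factor named in the design text, had 4.06, 4.04, 4.17 and 4.27 on the log2 scale in CEF2-VP16 nst1 nst3 stems, against -3.07, -2.39, -5.87 and -2.99 in nst1 nst3 stems, a rise of 7.72 (limma, adjusted p = 0.000114). NST1 and NST3 were well above background on all 8 arrays. No source used here places their probes inside or outside the mutated part, so those probes check nothing.

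Among the nst1 nst3 arrays, array 2 stood apart. It was the highest nst1 nst3 array for 39 of 41 of them, while it was the highest for 29.7% of all genes and for 70.5% of the 2101 genes that rose at least 2-fold. The median of the 41 genes, as a log2 difference from each gene's nst1 nst3 mean, was 0.44, 0.67, 0.68 and 0.69 on CEF2-VP16 nst1 nst3 arrays 1 to 4, against -0.14, 0.33, -0.08 and -0.13 on nst1 nst3 arrays 1 to 4. The groups still did not overlap for 22 of the 41 genes, where 27.9% of all genes had every CEF2-VP16 nst1 nst3 array above every nst1 nst3 array. Without array 2, 38 of the 41 were higher and 0 lower, and their median was 0.76. Over all 19609 genes in that fit, 5845 were higher and 5434 lower, with a median of 0.01. The spread among arrays was larger in nst1 nst3 for 38 of 41 genes, with a median SD of 0.15 in CEF2-VP16 nst1 nst3 and 0.24 in nst1 nst3 stems. The same held for 73.3% of all genes, with a median SD of 0.13 in CEF2-VP16 nst1 nst3 and 0.21 in nst1 nst3 stems.

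**Figure D2:**
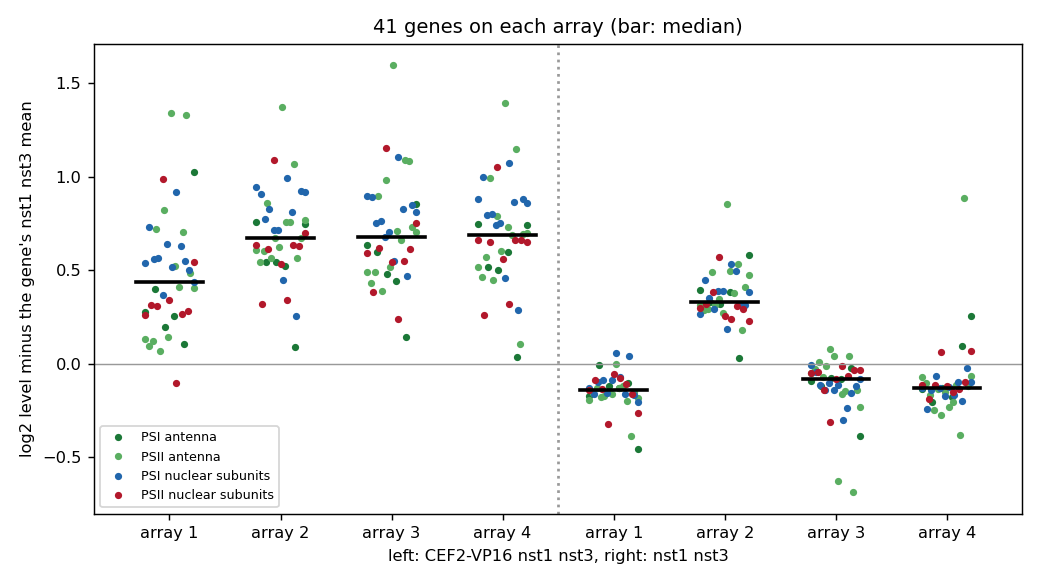
Each point is the log2 level of 1 of the 41 genes on 1 array minus that gene's nst1 nst3 mean, with arrays across the page and a bar at the median of each array. The nst1 nst3 array 2 median, 0.33, lies nearer to CEF2-VP16 nst1 nst3 array 1 at 0.44 than to the other nst1 nst3 arrays, which lie from -0.14 to -0.08.

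The photosystem I antenna, which sits as a belt along one side of that photosystem, rose in 5 of 6 genes, with a median difference of 0.48 that was 0.05 on the spike-in scale, where none passed. LHCA1, LHCA2, LHCA3 and LHCA4, the main proteins of the belt, rose by 0.61 ± 0.16, 0.51 ± 0.12, 0.43 ± 0.13 and 0.46 ± 0.14 (log2 ± SE, n = 4 arrays each). LHCA1 (AT3G54890) stood at 7.85, 8.33, 8.20 and 8.32 in CEF2-VP16 nst1 nst3 stems, against 7.39, 7.96, 7.48 and 7.44 in nst1 nst3 stems. Its groups overlapped through array 2 of nst1 nst3. LHCA5 and LHCA6 are minor members that link photosystem I to the chloroplast NADH dehydrogenase-like complex. LHCA6 (AT1G19150) rose by 0.84 ± 0.23 (limma, adjusted p = 0.016), from a probe that read 3.57, 3.30, 3.40 and 3.29 in CEF2-VP16 nst1 nst3 stems against 2.09, 3.13, 2.16 and 2.80 in nst1 nst3 stems. LHCA5 (AT1G45474) did not pass, with 2.87, 2.86, 2.91 and 2.80 in CEF2-VP16 nst1 nst3 stems against 2.66, 2.80, 2.74 and 2.86 in nst1 nst3 stems. The difference of LHCA5 was 0.09 ± 0.07 (limma, adjusted p = 0.30).

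The photosystem II antenna rose in 12 of 14 genes, with a median of 0.65 that was 0.21 on the spike-in scale. LHCB1, LHCB2 and LHCB3 proteins form the mobile and bound trimers called LHCII. The LHCB1 genes stand in tandem in the genome, LHCB1.2, LHCB1.1 and LHCB1.3 as one run and LHCB1.5 and LHCB1.4 as another, with 0 protein-coding genes between neighbours. LHCB2.2 and LHCB2.1 are likewise adjacent. These copies are near-identical, and a probe named for one can bind transcripts of another, so values of single copies are uncertain. By the brightest probe of each, LHCB1.1, LHCB1.2 and LHCB1.3 rose by 0.44, 0.38 and 0.45, and LHCB2.1 and LHCB2.2 by 0.82 and 0.47. The other probe of LHCB2.1 gave 0.35 and did not pass. LHCB1.5 did not pass at 0.37 ± 0.15 (limma, adjusted p = 0.063). LHCB1.2 and LHCB1.5 lay below 0 on the spike-in scale and after quantile normalization, though not past the test on either.

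LHCB2.3 (AT3G27690), an LHCII gene away from the tandem copies, had the largest difference of the 41 by the probes that stood for the genes, though other probes of LHCB1.4 gave larger ones. Its log2 level was 5.60, 5.63, 5.86 and 5.66 in CEF2-VP16 nst1 nst3 stems, against 4.26, 5.12, 3.63 and 4.03 in nst1 nst3 stems. Every CEF2-VP16 nst1 nst3 array was above every nst1 nst3 array. The difference was 1.43 ± 0.28, a fold of 2.69 (limma, adjusted p = 0.00362), and 0.99 on the spike-in scale (adjusted p = 0.013). A dimmer probe of the gene gave 1.62.

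LHCB3, the third LHCII protein, rose by 0.68 ± 0.16. The monomeric antenna proteins LHCB4, LHCB5 and LHCB6 (CP29, CP26 and CP24) join the trimers to the core. LHCB4.1, LHCB5 and LHCB6 rose by 0.63, 0.65 and 0.65. LHCB4.2 (AT3G08940) stood at 6.51, 6.88, 6.89 and 6.95 in CEF2-VP16 nst1 nst3 stems, against 5.61, 6.34, 5.85 and 5.43 in nst1 nst3 stems, without overlap. It rose by 1.00 ± 0.20, or 0.57 on the spike-in scale (limma, adjusted p = 0.0040 and 0.021). LHCB4.3 (AT2G40100), a form of CP29 with a less abundant mRNA in leaves, was the most variable of the set. Its level was 3.28, 2.51, 3.03 and 2.05 in CEF2-VP16 nst1 nst3 stems, against 1.56, 2.13, 1.26 and 2.83 in nst1 nst3 stems. The groups overlapped widely, and the difference of 0.77 ± 0.39 did not pass (limma, adjusted p = 0.126). It passed at 1.07 without nst1 nst3 array 4 (limma, adjusted p = 0.036).

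The probe that stood for a gene was the one with the highest mean log2 level. For LHCB1.4 (AT2G34430) this was A_84_P857496, with a mean signal of 299346 units, which rose by 0.87 ± 0.17 (limma, adjusted p = 0.0030). By mean signal, A_84_P160283 was brighter, at 313432 units, and it differed far more. It read 428651, 467134, 486830 and 532495 units in CEF2-VP16 nst1 nst3 stems, against 88421, 335708, 74652 and 93568 units in nst1 nst3 stems. The groups did not overlap, but nst1 nst3 array 2 lay at 0.80 of the way, on the log2 scale, from the other nst1 nst3 arrays to the CEF2-VP16 nst1 nst3 mean. The difference was 2.33 ± 0.52, a 5.02-fold rise (limma over single probes, adjusted p = 0.0071). Both remaining probes were dim, with A_84_P800855 at 1325, 1595, 1738 and 2120 units in CEF2-VP16 nst1 nst3 stems against 152, 810, 156 and 187 units in nst1 nst3 stems. They gave 3.1 and 3.07, and all 3 of these probes passed on the spike-in scale too, at 1.89, 2.67 and 2.63. None of the 4 probes of its neighbour LHCB1.5 (AT2G34420) differed by more than 0.93. The sources used here do not say how far each probe reads the other LHCB1 copies.

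**Figure D3:**
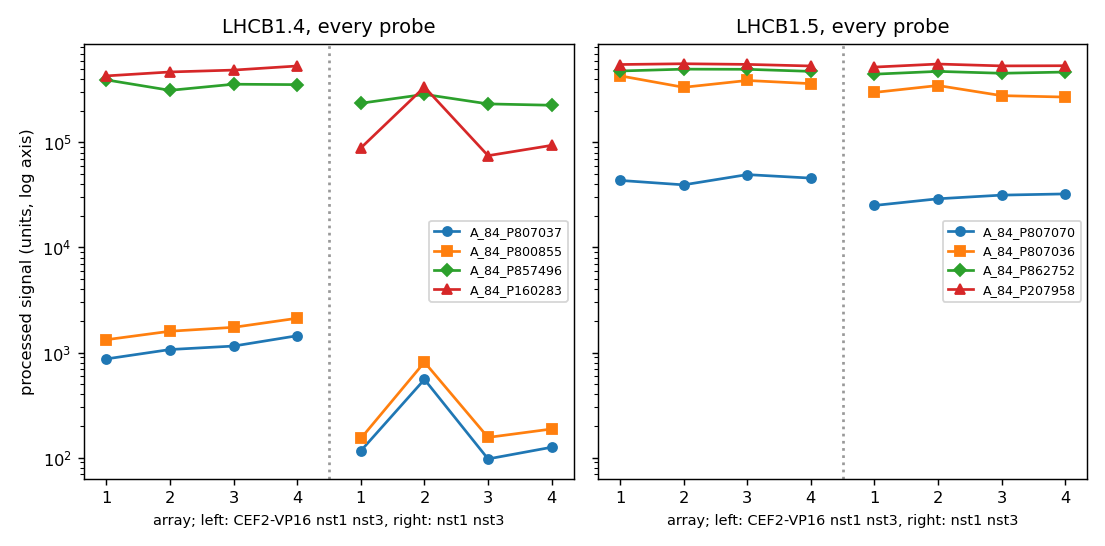
The processed signal in units (log axis) of the 4 probes of LHCB1.4, on the left, and of its tandem neighbour LHCB1.5, on the right, is joined across the 4 arrays of each group. In 3 LHCB1.4 probes, nst1 nst3 arrays 1, 3 and 4 fall far below every CEF2-VP16 nst1 nst3 array while nst1 nst3 array 2 lies between; the LHCB1.5 probes and the LHCB1.4 probe A_84_P857496 move far less.

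All 12 photosystem I subunit genes rose, with a median of 0.75, beside 0.31 and 3 of 12 on the spike-in scale. PSAD and PSAE proteins form the stromal dock for ferredoxin, and each has a pair of genes. PSAD1 and PSAD2 rose by 0.82 ± 0.13 and 0.88 ± 0.16, and PSAE1 and PSAE2 by 0.72 ± 0.13 and 0.74 ± 0.12. PSAD2 (AT1G03130) stood at 5.90, 6.08, 6.06 and 6.17 in CEF2-VP16 nst1 nst3 stems, against 5.01, 5.62, 5.12 and 4.93 in nst1 nst3 stems. Within each pair, both differences lay closer together than their SEs.

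PSAF and PSAN, which serve the plastocyanin side, rose by 0.63 ± 0.15 and 0.79 ± 0.14. PSAG and PSAK, which flank the core beside the antenna, rose by 0.70 ± 0.13 and 0.78 ± 0.16. PSAH, PSAL and PSAO lie where LHCII docks. PSAO rose by 0.76 ± 0.16 and PSAL by 0.39 ± 0.13. PSAL lay at -0.05 on the spike-in scale, where it did not pass. PSAH2 (AT1G52230) was at 4.18, 4.25, 4.37 and 4.33 in CEF2-VP16 nst1 nst3 stems, against 3.19, 3.80, 2.96 and 3.1 in nst1 nst3 stems. That difference was 1.02 ± 0.17, without overlap (limma, adjusted p = 0.0018, and 0.027 on the spike-in scale). Its paralog PSAH1 rose by 0.49 ± 0.09 and was at 0.06 on the spike-in scale.

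Of the 9 photosystem II subunit genes 8 rose, with a median of 0.54 that was 0.10 on the spike-in scale. PSBO, PSBP and PSBQ proteins shield the oxygen-evolving cluster on the inner side of the membrane. PSBO1 and PSBP1 rose by 0.54 ± 0.13 and 0.55 ± 0.14, and PSBQ2 by 0.50 ± 0.11. PSBO2, the second PSBO gene, rose by 0.32 ± 0.12, close to the threshold (limma, adjusted p = 0.046), and was at -0.12 on the spike-in scale. PSBQ1 (AT4G21280) had the second largest difference by the same probes, with 5.47, 5.57, 5.63 and 5.53 in CEF2-VP16 nst1 nst3 stems against 4.15, 5.05, 4.16 and 4.54 in nst1 nst3 stems. The groups did not overlap, and the difference was 1.07 ± 0.19 (limma, adjusted p = 0.0025), or 0.63 on the spike-in scale (adjusted p = 0.033).

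PSBW, PSBX and PSBY, small membrane proteins of the complex, rose by 0.53 ± 0.13, 0.55 ± 0.13 and 0.66 ± 0.12. PSBR (AT1G79040), a small protein needed for stable binding of PSBP, did not pass. Its level was 7.50, 7.95, 7.85 and 7.93 in CEF2-VP16 nst1 nst3 stems, against 7.53, 7.84, 7.59 and 7.46 in nst1 nst3 stems, a difference of 0.20 ± 0.13 (limma, adjusted p = 0.227). It was -0.24 on the spike-in scale and, past the test, -0.21 after quantile normalization (limma, adjusted p = 0.034). Before scaling, its signal ran from 577808 to 601971 units in CEF2-VP16 nst1 nst3 stems and from 636493 to 669785 units in nst1 nst3 stems, and it was the only one of the 41 whose unscaled signals were all lower. For 26 of the 41 genes the unscaled signals were all higher. Over all genes, the unscaled signals were all higher for 13.0% and all lower for 21.8%.

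Of the 37 rises, 29 passed in each of the 8 fits that left out 1 array. The other 8 were LHCA3, LHCA4, LHCB1.1, LHCB1.2, LHCB1.3, LHCB2.2, PSAL and PSBO2, which missed the threshold in 5 to 7 of those fits each, with differences that stayed above 0. All of them passed without nst1 nst3 array 2. LHCB1.5 passed without nst1 nst3 array 2 or without CEF2-VP16 nst1 nst3 array 1, at 0.47 in both.

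The brightness of a probe went together with the size of its difference. In all, 124 probes read the 41 genes. All were well above background on every array and none was marked saturated, although the highest reading of 807492 units lay above the stated saturation values of 779759 and 779844 units. Of the 124 probes, 113 were higher and 0 lower, where 27.0% of all single probes were higher and 23.8% lower. On the spike-in scale 32 were higher and 0 lower, against 9.78% higher of all probes. In 27 of the 33 genes with more than 1 probe, the dimmest probe by mean signal showed a larger difference than the brightest, with a median of 0.86 for the dimmest and 0.61 for the brightest. The probe that stood for the gene averaged over 300000 units for 23 of the 41.

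The 9 probes of LHCB1.3 show the range within a gene. Its 3 dimmest, at 12971, 16719 and 17376 units, gave 1.21, 1.21 and 1.14. Its brightest, at 750596 units, gave 0.45. Over the 41 genes' probes, the median difference was 0.89 up to 10000 units, 0.99 from there to 30000, 0.87 to 100000, 0.74 to 300000 and 0.57 above. Probes of all other genes had medians of 0.01, 0.04, 0.04, 0.24 and 0.33 in the same bands. Bright probes of other genes were also more often higher than single probes as a whole. From 100000 to 300000 units, 40.7% of them were higher and 20.2% lower, beside 31 higher of the 41 genes' 32 probes. Above 300000 units, 47.2% were higher and 6.74% lower, beside 36 higher of the 41 genes' 42 probes. With each gene read by its brightest probe under 100000 units on every array, 27 of the 41 could be measured, 25 were higher and 0 lower, and the median was 0.93. In that setting 29.4% of all genes were higher and 24.6% lower. On the spike-in scale 15 of the 27 were higher, and 0 lower, with a median of 0.49, against 10.9% higher and 39.9% lower of all genes. This setting was chosen after seeing the data.

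**Figure D4:**
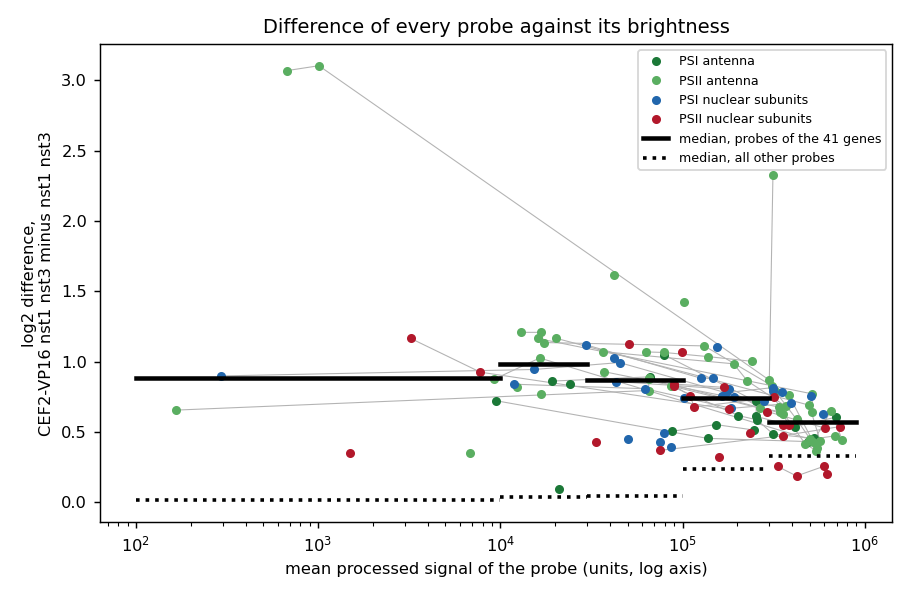
Each point is 1 of the 124 probes, with its mean processed signal in units (log axis) against its log2 difference, CEF2-VP16 nst1 nst3 minus nst1 nst3, and thin lines join the probes of genes with 3 or more. Solid bars are medians of the 41 genes' probes by brightness band, falling from 0.99 to 0.57 over the brighter bands, and dotted bars those of all other probes, reaching 0.33 in the brightest.

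The genes that make chlorophyll, the pigment the antenna binds, rose in 14 of 16 cases and fell in 0, with a median of 0.87 (6 of 16 on the spike-in scale). The largest rises were in late steps. PORA, a light-dependent protochlorophyllide oxidoreductase, stood at 0.99, 1.26, 1.09 and 1.42 in CEF2-VP16 nst1 nst3 stems, against -1.87, -0.04, -1.48 and -1.90 in nst1 nst3 stems. Its rise of 2.51 ± 0.39 was 5.69-fold and without overlap (limma, adjusted p = 0.0012). PORB, a second oxidoreductase, rose by 2.12 ± 0.26, and DVR, the divinyl reductase, by 1.96 ± 0.32. All 3 passed on the spike-in scale, at 2.07, 1.69 and 1.53. HEMA1, the first committed step, and CHLG, the chlorophyll synthase, did not pass, at -0.08 and 0.29.

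Of 10 chlorophyll breakdown genes, 6 were lower and 1 higher on both scales, and 4 lower and 1 higher after quantile normalization. Of all genes, 24.8% were lower and 29.5% higher, or 40.0% and 10.9% on the spike-in scale. After quantile normalization these shares were 24.6% and 29.1%. The list's median was -0.34, beside 0.03 for all genes, and -0.77 beside -0.39 on the spike-in scale. With so few genes, the counts were not tested against these shares. SGR2, a stay-green protein, stood at -2.17, -1.29, -1.85 and -2.25 in CEF2-VP16 nst1 nst3 stems, against 0.69, -0.60, 1.1 and 1.02 in nst1 nst3 stems. Its difference was -2.44 ± 0.40 without overlap (limma, adjusted p = 0.0014). PPH, the pheophytinase, fell by 0.87 ± 0.10, and SGR1, the magnesium dechelatase that starts breakdown, fell by 0.61 ± 0.22. SGRL, a relative of SGR1, was the 1 that rose, by 1.05 ± 0.13.

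The electron transport list, which also held PSBS, a nuclear PSB gene outside the 41, rose in 8 of 12 genes and fell in 1. Its median was 0.38 (1 higher and 1 lower on the spike-in scale, median -0.06). PETE1, a plastocyanin, rose by 0.90 ± 0.12, FD2, the main leaf ferredoxin, by 0.87 ± 0.13, and PSBS, the quenching protein, by 0.71 ± 0.16. PGRL1B, of cyclic electron flow, fell by 0.59 ± 0.09. All 3 nuclear genes of the chloroplast ATP synthase rose, ATPD by 1.16 ± 0.20, ATPC1 by 0.47 ± 0.10 and ATPG by 0.39 ± 0.10, and 1 of 3 on the spike-in scale. The Calvin cycle rose in 13 of 19 genes and fell in 0, with a median of 0.40, while on the spike-in scale 0 passed in either direction and the median was -0.04. With probes under 100000 units, 4 of the 14 Calvin cycle genes that could be measured were higher, near the share of all genes, and the median was 0.28. Its largest rises were GAPA2, a subunit of glyceraldehyde-3-phosphate dehydrogenase, at 0.95 ± 0.16, RBCS3B, a small subunit of Rubisco, at 0.75 ± 0.14, and PGK1, a phosphoglycerate kinase, at 0.71 ± 0.15. Of 8 listed chloroplast-encoded genes, 0 were measured here.

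**Figure D5:**
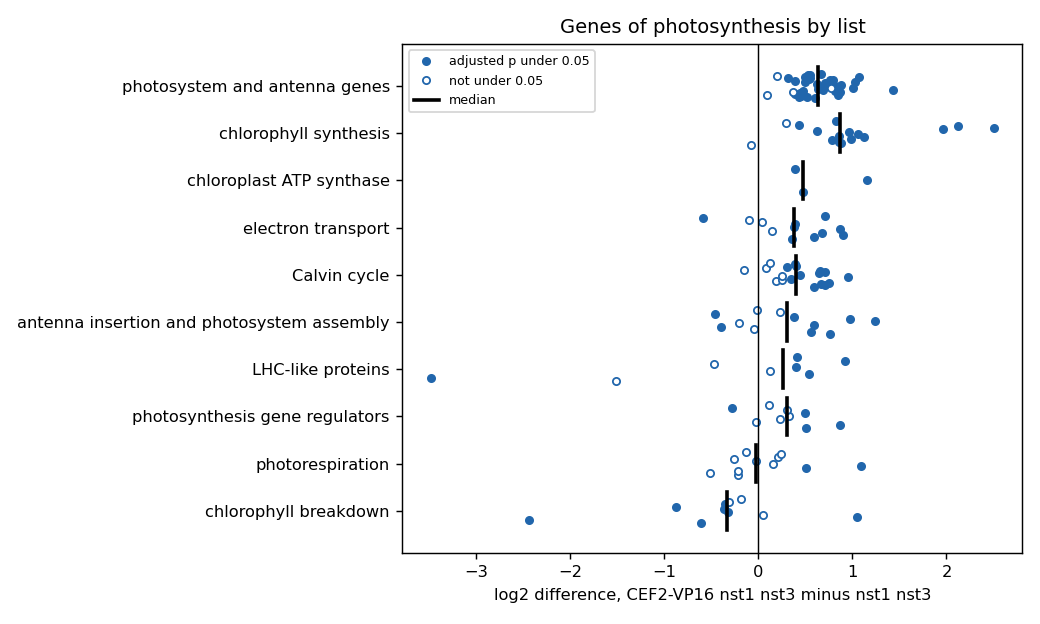
Each point is the log2 difference of 1 gene, CEF2-VP16 nst1 nst3 minus nst1 nst3, on the 75th percentile scale, with lists down the page and a bar at each median. Chlorophyll synthesis has the highest median, 0.87, above the photosystem and antenna genes at 0.63, and chlorophyll breakdown the lowest at -0.34; of the lists drawn, only the photosystem and antenna genes, chlorophyll synthesis and the ATP synthase have medians above 0 on the spike-in scale.

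Of the listed regulators of photosynthesis genes, 3 of 9 measured rose and 1 fell, with 0 and 1 on the spike-in scale. The share that rose was close to the 29.5% of all genes, and the share that fell was below their 24.8%. On the spike-in scale, 10.9% of all genes were higher and 40.0% lower. GLK1 and GLK2 are activators of antenna and chlorophyll genes. GLK1 was at 1.55, 1.69, 1.73 and 1.78 in CEF2-VP16 nst1 nst3 stems, against 1.17, 1.47, 1.27 and 0.83 in nst1 nst3 stems, a rise of 0.50 ± 0.14 without overlap (limma, adjusted p = 0.016). GLK2 was at 3.35, 3.73, 3.54 and 3.54 in CEF2-VP16 nst1 nst3 stems, against 2.01, 2.38, 3.45 and 2.88 in nst1 nst3 stems, a rise of 0.86 ± 0.29 with overlapping groups (limma, adjusted p = 0.033). Without nst1 nst3 array 2, GLK2 no longer passed, at 0.76 (limma, adjusted p = 0.073).

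The PIF factors restrain photosynthesis genes in the dark. PIF3 rose by 0.49 ± 0.10 and PIF5 fell by 0.28 ± 0.07, while PIF1 and PIF4 did not pass, at 0.32 and 0.31, and PIF4 passed at 0.46 without nst1 nst3 array 2 (limma, adjusted p = 0.0030). HY5, an activator in light, GNC, a GATA factor, and GUN1, of chloroplast signalling, did not pass either, at 0.23, -0.02 and 0.11. CGA1 was not measured here.

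Many LHC genes are known to follow the circadian clock. Of 10 clock genes, 3 were higher and 3 lower, shares close to those of all genes, and on the spike-in scale 2 were higher and 4 lower. LUX, PRR5 and ELF3 rose by 1.60, 1.39 and 0.52, and LHY, CCA1 and PRR9 fell by 1.57, 1.24 and 0.68. No label gives the hour of harvest. The part of the clock differences in the values of the 41 genes was not tested.

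In whole stems, more cells of a type and more RNA per cell cannot be told apart. The summed level of 5 epidermis markers, as signal over the 75th percentile, ran from 30.8 to 32.7 in CEF2-VP16 nst1 nst3 stems and from 15.4 to 23.4 in nst1 nst3 stems, and 4 of 5 rose (0 on the spike-in scale). That of 5 xylem markers ran from 37.4 to 43.7 in CEF2-VP16 nst1 nst3 and from 18.2 to 35.5 in nst1 nst3 stems. All 5 rose (1 on the spike-in scale). Both sums rest mainly on 1 bright gene. CER6 had a mean log2 level of 4.67 in CEF2-VP16 nst1 nst3 stems, against 1.80 for FDH, the next epidermis marker. XCP2 had 4.83 there, against 2.16 for XCP1, the next xylem marker. PDF1, an epidermis marker at -5.88, was well above background on only 3 CEF2-VP16 nst1 nst3 arrays. Guard cell markers, from cells that hold chloroplasts, summed to 3.66 to 4.75 in CEF2-VP16 nst1 nst3 and 3.09 to 7.34 in nst1 nst3 stems. Of these 5, 0 were higher and 2 lower on both scales. Phloem markers summed to 25.3 to 32.2 in CEF2-VP16 nst1 nst3 and 32.4 to 34.3 in nst1 nst3 stems. Of these 4, 1 was higher and 2 lower (0 and 3 on the spike-in scale). Of 4 floral and meristem markers, 2 were measured, with sums of 6.07 to 7.87 in CEF2-VP16 nst1 nst3 and 5.52 to 6.90 in nst1 nst3 stems and 0 called. By comparison, 29.5% of all genes were higher and 24.8% lower, and 10.9% and 40.0% on the spike-in scale. With so few markers per list, the counts were not tested against these shares. None of the measured markers was at the floor on any array. Their part in the values of the 41 genes was not tested.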

How the data were processed

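RNA from stems was labelled with Cy3 (200 ng of total RNA) and hybridised to 8 single-colour Agilent arrays, per the labels' protocols. The deposited processed signal is an intensity, extracted with Agilent Feature Extraction 11.5.1.1, per the file headers; the submitters' processing notes name 9.1.3.1. The authors' value table holds the natural log of that signal minus a constant, 7.15 for CEF2-VP16 nst1 nst3 and 7.39 for nst1 nst3 arrays, and its column medians ran from -1.23 to -0.84 in CEF2-VP16 nst1 nst3 and from -1.26 to -1.05 in nst1 nst3. The sources used here do not say how the constants were chosen, and the table served as an alternative.

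Levels are log2 of the processed signal over the array's 75th percentile, taken over 43603 non-control probes and floored at 0.01. Spots of a probe were averaged without those marked as outliers. Probes had to be well above background on 4 or more of the 8 arrays, and the brightest probe, by mean log2 level, stood for a gene. Of the probes, 34348 matched 25410 loci through RefSeq accessions (TAIR10.1 gene table). No coordinates or sequences are given. Groups were compared with lmFit and eBayes (limma 3.58.1, R 4.3.3), Benjamini-Hochberg over 19609 genes, and SEs are those of the moderated fit. The number of arrays limits the precision. Alternatives were the background correction, scaling, probe choice, filter, floor, variance model, replicate block and arrays left out. The normexp correction used the median signal, since the mean signal planned for it was not among the columns used here. Deviations of same-numbered arrays correlated at -0.04, -0.20, 0.16 and -0.40. This gave no sign of pairing by number, though with 4 arrays per group it cannot exclude it.

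The genes and lists were chosen with earlier results of these data known. The text names all 41 genes, all regulators measured, and up to 3 called genes in each direction of every other list; HEMA1, CHLG, ELIP1, SEP2 and the probes named were chosen after their values were seen.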

Additional observations from a re-analysis of the deposited data

Results flagged for a closer look

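In 15 of 82 sets of 4 arrays (41 genes in each of 2 groups), 1 array lay farther from the rest than Dixon's test allows at its 95% level; chance gives about 1 set in 20. The values are log2 levels over the 75th percentile. In 11 sets the array was nst1 nst3 array 2, above the other nst1 nst3 arrays each time, with LHCA1 at 7.96, LHCA3 at 7.47, LHCB3 at 7.11, LHCB4.1 at 6.96, LHCB5 at 6.94, PSAE1 at 6.54, PSAE2 at 5.01, PSAF at 7.70, PSAG at 7.08, PSBP1 at 7.12 and PSBW at 7.71. In the other 4 sets it was CEF2-VP16 nst1 nst3 array 1, below the other arrays of its group, with PSAD1 at 6.85, PSBP1 at 7.04, PSBQ2 at 6.40 and PSBX at 6.91. The sets are not independent, since they share the arrays.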

How the results depend on the processing

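The count of 37 higher genes kept within 1.5 times under all alternatives but spike-in scaling, with 6, and spike-in scaling of probes under 100000 units, with 15; leaving out each array gave 29 to 38. By group, spike-in scaling gave 0 of the photosystem I antenna, 2 of the photosystem II antenna, 3 photosystem I subunits and 1 photosystem II subunit, and quantile normalization 2 of the photosystem I antenna and 4 photosystem II subunits. Probes under 100000 units, which leave fewer genes, gave 3 of the photosystem I antenna, 6 photosystem I and 5 photosystem II subunits, or 1, 3 and 2 with spike-in scaling. Quantile normalization called 1 gene lower, PSBR at -0.21. The median difference was 0.30 after quantile normalization, 0.19 on the spike-in scale and 0.93 with probes under 100000 units, and 0.57 to 0.76 with each array left out. Other signs that turned were, on the spike-in scale, LHCA3 at -0.0041, LHCA5 at -0.34, LHCB1.2 at -0.0517, LHCB1.5 at -0.0692, PSAL at -0.0453, PSBO2 at -0.12 and PSBR at -0.24; after quantile normalization, LHCB1.2 at -0.0106 and LHCB1.5 at -0.0383; after normexp, LHCA5 at -0.0510; and with probes under 100000 units on the spike-in scale, LHCA5 at -0.34, PSBO1 at -0.0670, PSBO2 at -0.0875 and PSBQ2 at -0.0040. Over all genes, 5776 were higher and 4858 lower, and 2129 and 7845 on the spike-in scale (2118 and 7762 with probes under 100000 units); the authors' table gave 4224 higher and 2981 lower. Leaving out each array gave 4894 to 5914 higher and 4105 to 5434 lower, 3 to 5 of the photosystem I antenna, 8 to 13 of the photosystem II antenna, 11 to 12 photosystem I subunits and 7 to 8 photosystem II subunits. The cause of these changes was not tested. With the replicate number as a block, 36 of the 41 were higher, and 4715 genes were higher and 3904 lower over all. Settings with probes under 100000 units were added after seeing the data.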

Other observations

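Helpers of the photosystems moved unevenly. Of 12 measured genes of antenna insertion and assembly, 6 were higher and 2 lower (limma, adjusted p under 0.05). The median difference was 0.31. On the spike-in scale 1 was higher and 3 lower. Among all genes, 29.5% were higher and 24.8% lower, and 10.9% and 40.0% on the spike-in scale. PSB27 and PSB28, of photosystem II assembly, rose by 1.24 ± 0.18 and 0.98 ± 0.20, and CPSRP43, which delivers LHC proteins to the membrane, rose by 0.76 ± 0.12. STN7, the kinase of state transitions, fell by 0.46 ± 0.09, and ALB4, an insertase, fell by 0.40 ± 0.11. Among 8 relatives of LHC proteins, 4 were higher and 1 lower, or 4 and 3 without nst1 nst3 array 2, where ELIP1 passed at -1.96 (limma, adjusted p = 0.018) and SEP2 at -0.59 (limma, adjusted p = 0.025). LIL3.1 rose by 0.92 ± 0.16, OHP1 by 0.54 ± 0.11 and LIL3.2 by 0.41 ± 0.09, though 0 of the 8 were higher and 3 lower on the spike-in scale. ELIP2, a light-stress protein, stood at -3.25, -4.23, -3.73 and -5.46 in CEF2-VP16 nst1 nst3 stems, against -0.51, -0.81, -1.68 and 0.28 in nst1 nst3 stems, without overlap. Its difference was -3.49 ± 0.54 (limma, adjusted p = 0.0012).

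Photorespiration, the salvage path beside the Calvin cycle, had 2 of 11 measured genes higher and 0 lower, with a median of -0.03. GLDH3 and GLDH1, H proteins of glycine decarboxylase, rose by 1.1 ± 0.16 and 0.50 ± 0.16. On the spike-in scale 1 of the 11 was higher and 5 were lower, shares close to the 10.9% and 40.0% of all genes.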
